A study of Mus musculus with 27 samples.

Results

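The 49 mouse genes described here encode Polycomb proteins, chromatin remodelers, histone modifiers and DNA methylation enzymes, and their H3K4 methylation regions were examined in embryonic hearts with and without *Kmt2d* in the myocardium. The genes were taken by name from 22244 protein-coding genes of GENCODE vM1 on mouse assembly mm9. Membership used no measured value, but the list was drawn up with earlier results of these data known. Their regions were all regions of the merged H3K4me1, H3K4me2 and H3K4me3 peak list that overlapped the gene or lay within 5 kb of one of its transcription start sites (TSS), which gave 836 of 358833 regions.

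Polycomb repressive complex 2 (PRC2) methylates H3K27, and PRC1 binds that mark through its CBX subunits and ubiquitylates H2A through its RING subunits. The BAF and CHD complexes use ATP to move nucleosomes, while acetyltransferases, deacetylases, methyltransferases and demethylases write and erase histone marks, and DNMT and TET enzymes write and oxidize DNA methylation. Many of these regulators are required for formation of the embryonic heart, and LSD1 and the KDM5 enzymes remove the H3K4 methyl groups that KMT2D and its relatives add. Promoters of active genes carry H3K4me3 and H3K4me2, and enhancers carry H3K4me1 and H3K4me2.

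The comparison addressed where the myocardium needs KMT2D for H3K4 methylation, and set E11.5 control hearts (*Tnnt2::Cre; Kmt2d fl/+; mTmG/+*) against mutant hearts (*Tnnt2::Cre; Kmt2d fl/fl; mTmG/+*) of strain C57BL/6 by ChIP-Seq. Both genotypes therefore carried the Cre transgene, the mTmG reporter and at least 1 floxed *Kmt2d* allele, and the animals titled WT are heterozygous controls. The series held 27 libraries in 9 groups of 3, and the 24 heart libraries were input, H3K4me1, H3K4me2 and H3K4me3 from 3 pools of 30 hearts per genotype. Cre made from the *Tnnt2* promoter acts in heart muscle cells, but whole hearts were used, so that a fall of a mark within myocytes was measured together with the other cells of the heart. The values available were the authors' lists of merged regions and of regions with decreased H3K4me1 or H3K4me2 in mutant hearts. These lists carry coordinates and no read counts or values per replicate, so the depth is unknown and the spread between replicates could not be used to judge any difference. Membership of a decreased list is a call made by the authors. Such calls come more easily at wide or strongly marked regions, and a fall at an unlisted region is not excluded. Changes in H3K4me3 and KMT2D ChIP-Exo regions were not analysed here. *Kmt2d* itself held 11 merged regions, 0 of them in a decreased list, and the lists hold no measure of its deletion. The marker genes of cardiomyocytes (5 of 5), endothelium (4 of 4), epicardium (3 of 3), erythroid cells (3 of 3) and neurons (3 of 3) all had a TSS in a merged region, so the presence of a region did not tell cell types apart. H3K4me2 was called lower at 2 of the cardiomyocyte, 1 of the erythroid and 1 of the neural markers, and H3K4me1 at 1 of the endothelial markers. The part of cell composition in the results below was not tested.

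Decreased H3K4me2 was called mainly over the promoters of these genes, whereas decreased H3K4me1 was called inside the bodies of a few of them. A TSS lay within an H3K4me2-decreased region for 27 of the 49 genes, and 33 had at least 1 such region anywhere. Among all coding genes with a TSS in a merged region the share with the TSS in an H3K4me2-decreased region was 29.2%, and among all coding genes with a merged region 28.7% had any H3K4me2-decreased region. The main TSS, the start used by most protein-coding transcripts of a gene, lay in such a region for 24 of the 42 genes that had it in a merged region, against 28.6% of coding genes. Without regions that also held the TSS of another coding gene, the count for any TSS was 23 of the 49. H3K4me1 was called lower at 7 genes, against 7.11% of coding genes, and over a TSS at 1 gene, against 1.29%. Regions in each of the lists were found at 5 genes, against 2.87% of coding genes. H3K4me2 alone was lower at 28 genes, H3K4me1 alone at 2 genes, and 14 genes had no region in either list. The matching shares over coding genes were not computed. A smaller share of marked cells and less of the mark per cell cannot be told apart in these pooled hearts.

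**Figure D1:**
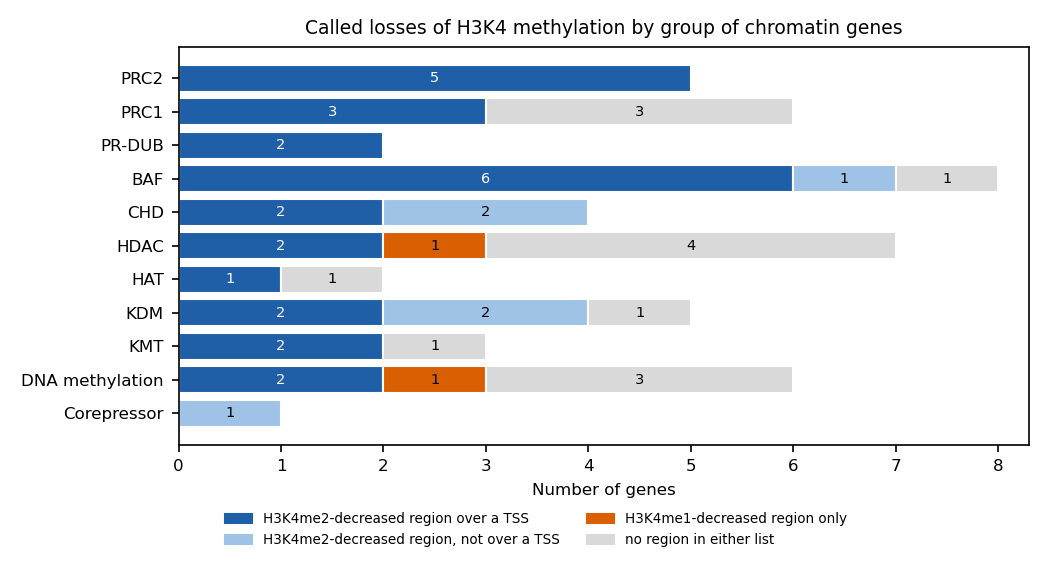
Number of genes (horizontal axis) in each of the 11 groups of chromatin genes, colored by the decreased regions they held. All 5 PRC2 genes had an H3K4me2-decreased region over a TSS, whereas 4 of 7 HDAC genes had no region in either list. Among coding genes with a TSS in a merged region, 29.2% had it in an H3K4me2-decreased region. H3K4me2 was called lower at 2 of the 7 HDAC genes, against 28.7% of coding genes.

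By regions, 16 of the 836 (1.91%) were H3K4me1-decreased, against 0.761% of all merged regions and 0.935% of those assigned to any coding gene in the same way. H3K4me2 was decreased at 40 (4.78%), against 1.87% and 2.69%. The places of the regions differed between the marks. Of the 40 H3K4me2-decreased regions, 28 held a TSS of their gene, 3 overlapped an untranslated region (UTR), 2 another exon and 4 only introns, and 3 lay outside the gene. Of the 16 H3K4me1-decreased regions, 13 lay entirely within introns and 1 held a TSS. These shares (81.3% and 6.25%) were near those of all 836 regions, of which 592 (70.8%) lay within introns and 69 (8.25%) held a TSS. The H3K4me2-decreased regions, with 70.0% over a TSS, departed from them. None of the 16 held the main TSS, while 24 of the 40 did. A single region, in *Gse1*, was in both lists.

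The groups of genes are described in turn, and the plot of calls by group gives their counts. The 5 PRC2 genes (*Ezh1*, *Ezh2*, *Eed*, *Suz12* and *Jarid2*) each had lower H3K4me2 over the main TSS. *Ezh2*, which encodes the main H3K27 methyltransferase, had a decreased region of 4880 bp (chr6:47541826-47546705, with main TSS on the reverse strand at 47545029). The region over *Eed*, whose protein binds trimethylated H3K27, was 4120 bp wide (chr7:97126786-97130905). That over *Suz12*, the scaffold of the complex, was 4180 bp wide (chr11:79805186-79809365). The decreased regions of *Eed* and *Suz12* made up 77.7% and 78.9% of all base pairs (bp) in merged regions of these genes, so that little other marked sequence was listed at either. *Ezh1*, the less active paralog of *Ezh2*, had a promoter region of 1780 bp (chr11:101086366-101088145) that was called lower, and by the widest TSS region of each gene it was the narrowest of the 47 genes that had one. *Jarid2*, an accessory subunit that helps recruit PRC2, had 62 merged regions, of which the one over its main TSS (10320 bp, chr13:44822946-44833265) was H3K4me2-decreased.

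*Ezh1* and *Jarid2* each held a further decreased region of very small width within an intron. The region of *Ezh1*, 60 bp wide and 24512 bp downstream of the main TSS, was in the H3K4me2 list, and 60 bp is the narrowest width in the merged list. The region of *Jarid2*, 100 bp wide and 33782 bp downstream, was the only H3K4me1-decreased region of a PRC2 gene. They are shown whole because the calls rest on these few bases. They and the 250 bp upstream of the main TSS of *Ezh1* and *Eed* are given 5′ to 3′ on the strand of the gene, as read from NCBIM37 (mm9).
Ezh1 intronic region, chr11:101063206-101063265, reverse strand: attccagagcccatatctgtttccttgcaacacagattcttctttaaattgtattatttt
Jarid2 intronic region, chr13:44858686-44858785, forward strand: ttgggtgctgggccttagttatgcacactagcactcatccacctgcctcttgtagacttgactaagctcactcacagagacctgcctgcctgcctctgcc
Ezh1 promoter, chr11:101087778-101088027, reverse strand: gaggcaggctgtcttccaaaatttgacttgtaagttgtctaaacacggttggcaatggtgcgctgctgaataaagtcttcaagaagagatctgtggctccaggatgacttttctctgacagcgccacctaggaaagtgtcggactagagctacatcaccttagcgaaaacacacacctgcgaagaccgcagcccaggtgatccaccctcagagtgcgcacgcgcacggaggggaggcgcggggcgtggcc
Eed promoter, chr7:97129494-97129743, reverse strand: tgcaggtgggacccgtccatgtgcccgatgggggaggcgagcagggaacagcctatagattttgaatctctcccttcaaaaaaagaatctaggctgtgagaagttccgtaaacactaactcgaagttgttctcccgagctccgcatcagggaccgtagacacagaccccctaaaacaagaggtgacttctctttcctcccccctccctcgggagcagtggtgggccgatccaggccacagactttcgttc
Capitals were reserved for matches on either strand to GGGCGG (the GC box), CACGTG (an E-box), CCAAT (the CCAAT box) and TATAAA (the TATA box), and none of these windows held one. The 2 intronic regions contained no CpG, with a GC content of 31.7% in *Ezh1* and 55.0% in *Jarid2*. The promoters of *Ezh1* and *Eed* had GC contents of 55.2% and 54.8%.

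Within PRC1 the calls fell on the ubiquitin ligase and its partner and not on the chromodomain readers. *Rnf2*, encoding the ligase RING1B, had a decreased H3K4me2 region of 6720 bp at its only TSS (chr1:153342186-153348905). *Ring1*, encoding its paralog, lay in an 11160 bp decreased region (chr17:34160026-34171185) that also held the TSS of *Rxrb*, *Slc39a7* and *H2-Ke6*, so that the call cannot be given to a single promoter. *Bmi1*, encoding the RING partner PCGF4, had 3 decreased regions in a row, of 3240, 3960 and 1480 bp, separated by gaps of 920 bp each. They ran from 18592846 to 18603365 on chromosome 2 and made up 93.9% of the merged base pairs of *Bmi1*. The first lay 2560 bp upstream of *Bmi1* and held the TSS of the neighbor *Commd3*, the second the main TSS, and the third an internal TSS. *Cbx2*, *Cbx7* and *Cbx8*, encoding readers of trimethylated H3K27, had TSS regions of 7320, 2660 and 8560 bp, and 0 of their regions were in either list. The main TSS of *Cbx7* lay outside the merged regions, and its 2660 bp region covered another start.
The *Bmi1* promoter is shown because windows were taken in order of the width of the decreased region. It held the largest number of motif matches among the printed windows. The capitals mark 6 matches to GGGCGG on either strand, some of which overlap, and 1 to CACGTG, in 250 bp with a GC content of 70.4%.
Bmi1 promoter, chr2:18598395-18598644, forward strand: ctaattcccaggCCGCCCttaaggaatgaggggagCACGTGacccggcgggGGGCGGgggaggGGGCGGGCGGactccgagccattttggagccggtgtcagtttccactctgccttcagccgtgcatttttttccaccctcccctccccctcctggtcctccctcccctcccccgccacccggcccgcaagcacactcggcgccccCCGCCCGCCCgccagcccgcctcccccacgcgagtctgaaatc

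The 2 genes of the Polycomb deubiquitylase (PR-DUB) each had an H3K4me2-decreased region over a TSS. This was so for 29.2% of coding genes with a TSS in a merged region. *Bap1*, encoding the H2A deubiquitylase, had lower H3K4me2 in a 5740 bp region (chr14:32062046-32067785) shared with the TSS of *Phf7*. *Asxl1*, encoding its partner, had a decreased region of 10280 bp (chr2:153167626-153177905) over its main TSS.

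**Figure D2:**
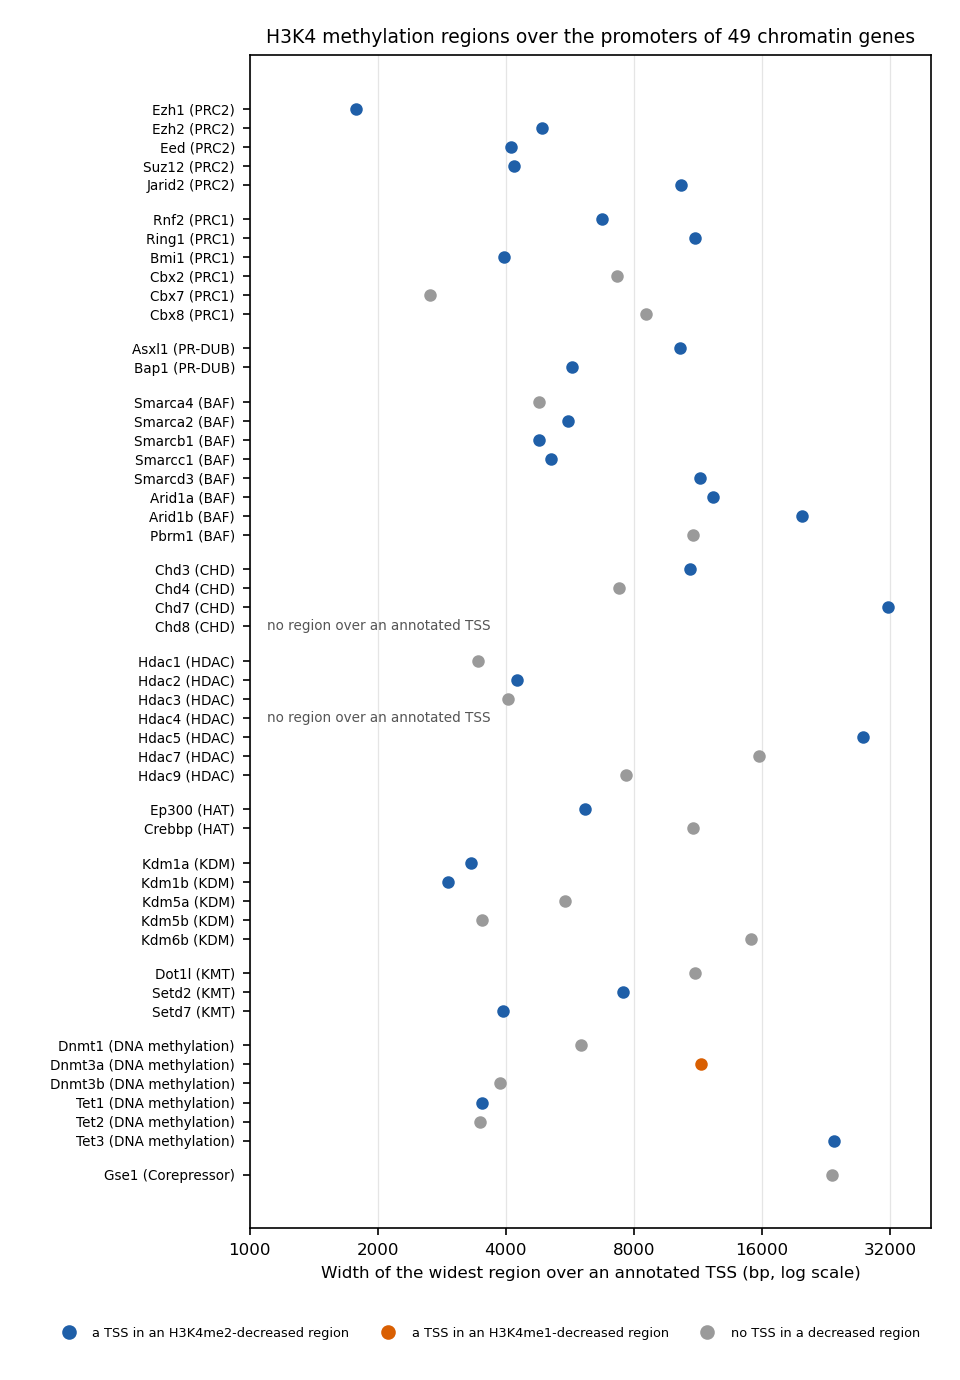
Width in bp (horizontal axis, log scale) of the widest merged region over an annotated TSS of each gene, 1 point per gene, colored by whether any TSS of the gene lay in a decreased region. Called promoters spanned 1780 bp (*Ezh1*) to 31580 bp (*Chd7*), and in *Smarca2* the called region (4040 bp) was not the widest one plotted (5600 bp).

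Among the BAF remodeler genes, 7 of 8 had an H3K4me2-decreased region, against 28.7% of coding genes. The exception was *Smarca4*, encoding the ATPase BRG1, with a TSS region of 4780 bp. The promoters of the core subunit genes *Smarcb1* (4800 bp, chr10:75381466-75386265) and *Smarcc1* (5100 bp, chr9:110033126-110038225) were called at nearly the same width as that uncalled region. *Smarcd3*, encoding the heart and muscle subunit BAF60C, had an 11420 bp decreased region (chr5:24101966-24113385) over its main TSS, and *Arid1a*, encoding a DNA-binding subunit, one of 12280 bp (chr4:133301786-133314065). *Smarca2*, encoding the other ATPase, BRM, was called only at an internal TSS, in a region of 4040 bp that began 141236 bp downstream of the main TSS (chr19:26820886-26824925). The 5600 bp region over the main TSS of *Smarca2* was in neither list. *Pbrm1*, encoding the polybromo subunit of the related PBAF complex, had lower H3K4me2 within the gene, in regions of 1860 and 5200 bp. Its 11020 bp TSS region, which did not hold the main TSS, was in neither list.

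*Arid1b*, the paralog of *Arid1a*, held the largest number of decreased regions of any gene here. Its promoter region of 19920 bp (chr17:4992966-5012885) and an intronic region of 6260 bp were H3K4me2-decreased. A further 4 regions of 3700, 3420, 800 and 5140 bp were H3K4me1-decreased and lay from 54907 to 325687 bp downstream of the main TSS. Gaps of 50960 to 109080 bp separated these 4 regions from each other. They made up 6.53% of the 200020 bp in its 87 merged regions, and the H3K4me2-decreased regions 13.1%, so that most of the marked sequence of *Arid1b* was in neither list.

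All 4 genes of the CHD group had an H3K4me2-decreased region, against 28.7% of coding genes. For 2 of them it lay over a TSS, against 29.2% of coding genes with a TSS in a merged region. *Chd7*, encoding a remodeler mutated in CHARGE syndrome, had the widest decreased region of all, 31580 bp over the main TSS (chr4:8612306-8643885). It was followed 77789 bp downstream of that TSS by an intronic H3K4me1-decreased region of 14160 bp (chr4:8695406-8709565). *Chd3* and *Chd4* encode ATPases of the NuRD deacetylase complex. The region of *Chd3* (10820 bp, chr11:69177046-69187865) lay 1823 bp upstream of the main TSS, over another TSS and the start of the predicted gene *Gm17305*. For *Chd4* the decreased region (3920 bp) lay 4634 bp upstream, and its 7380 bp TSS region was in neither list. *Chd8* had no TSS in a merged region, the nearest region being 577 bp away, and its decreased region of 5520 bp lay over the end of the gene and the TSS of the neighbor *Supt16h*.

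Of the 7 deacetylase genes, 3 held a decreased region. H3K4me2 was called lower at 2 of the 7, against 28.7% of coding genes, and H3K4me1 at 1, against 7.11%. Of the class I genes, *Hdac2* had a decreased H3K4me2 region of 4240 bp (chr10:36693526-36697765) over its main TSS, whereas *Hdac1* and *Hdac3*, with TSS regions of 3440 and 4060 bp, were in neither list. Class IIa deacetylases bind and repress the heart transcription factor MEF2. Of their genes, *Hdac5* had lower H3K4me2 across 27580 bp (chr11:102064946-102092525), or 90.5% of its merged base pairs. *Hdac4* instead had lower H3K4me1, in intronic regions of 6340 and 2280 bp that lay 1560 bp apart and began 36945 and 33105 bp downstream of the main TSS (chr1:94001686-94008025 and chr1:94009586-94011865). No annotated TSS of *Hdac4* lay in a merged region, and the closest of them, not the main TSS, was 7 bp outside one. *Hdac7* and *Hdac9* were in neither list. *Hdac7* had a 15720 bp region over a TSS other than the main one, which lay outside the merged regions. *Hdac9*, the longest gene here at 481304 bp, had 99 merged regions. For the acetyltransferase genes, *Ep300* had a decreased H3K4me2 promoter region of 6140 bp (chr15:81414366-81420505), and its paralog *Crebbp*, with an 11040 bp TSS region and 30 merged regions, was in neither list.

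Histone demethylase genes had decreased H3K4me2 at 4 of 5, against 28.7% of coding genes. *Kdm1a* and *Kdm1b* encode LSD1 and LSD2, which demethylate H3K4me1 and H3K4me2. Their main promoters were called in regions of 3320 bp (chr4:136155866-136159185) and 2920 bp (chr13:47137546-47140465), the latter shared with the TSS of *Tpmt*. Each also had a second decreased region within the gene, 2100 bp in an intron of *Kdm1a* and 60 bp over an exon of *Kdm1b*. *Kdm5a* and *Kdm5b* encode demethylases of H3K4me3 and H3K4me2. *Kdm5a*, with a TSS region of 5500 bp, was in neither list, and *Kdm5b* was called in a 3260 bp region 2263 bp upstream (chr1:136451226-136454485) and not in its 3520 bp TSS region. For *Kdm6b*, encoding the H3K27 demethylase JMJD3, the decreased region of 7460 bp lay at the end of the gene and held the TSS of *Cyb5d1*, *Lsmd1* and *Tmem88*. Its own TSS region, 15100 bp wide, was in neither list.
The *Kdm1a* promoter is shown because windows were taken in order of the width of the decreased region. The capitals mark 1 match to CCAAT.
Kdm1a promoter, chr4:136158639-136158888, reverse strand: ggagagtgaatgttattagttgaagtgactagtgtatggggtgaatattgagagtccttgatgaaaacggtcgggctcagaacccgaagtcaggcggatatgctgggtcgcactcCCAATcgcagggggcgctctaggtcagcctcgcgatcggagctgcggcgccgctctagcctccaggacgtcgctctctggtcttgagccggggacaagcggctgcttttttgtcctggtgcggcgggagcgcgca

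Of the other histone methyltransferase genes, *Setd2*, encoding the main H3K36 methyltransferase, had a decreased H3K4me2 region of 7540 bp over its main TSS (chr9:110430786-110438325). *Setd7*, encoding a monomethyltransferase of H3K4 and of non-histone proteins, had one of 3940 bp (chr3:51362246-51366185). *Dot1l*, encoding the H3K79 methyltransferase, had a TSS region of 11140 bp and was in neither list.

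Of the 6 DNA methylation genes, H3K4me2 was called lower at 2, *Tet1* and *Tet3*, against 28.7% of coding genes. The TET genes encode 5-methylcytosine dioxygenases. H3K4me1 was called lower at *Tet3* and *Dnmt3a*, against 7.11% of coding genes. *Tet3* had a 23600 bp H3K4me2-decreased region over its main TSS (chr6:83386906-83410505) and, within the gene, H3K4me1-decreased regions of 3480 and 3900 bp (chr6:83376746-83380225 and chr6:83370526-83374425) separated by 2320 bp. *Tet1* had lower H3K4me2 in a 3520 bp region (chr10:62326186-62329705) that lay 13057 bp downstream of the main TSS and held another. *Tet2*, with a TSS region of 3480 bp, was in neither list. *Dnmt3a*, encoding a de novo methyltransferase, was the only gene with a TSS in an H3K4me1-decreased region. That region spanned 11520 bp (chr12:3883466-3894985) and began 76939 bp downstream of the main TSS. Regions of 1360 and 3800 bp, 1760 bp apart and nearer to the main TSS, were in the same list, and the 8220 bp region over the main TSS was in neither. *Dnmt3b* and the maintenance enzyme gene *Dnmt1*, with TSS regions of 3880 and 6020 bp, were in neither list.

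*Gse1* encodes a coiled-coil protein of corepressor complexes with HDAC enzymes and LSD1, and the study named it from these same libraries, so it is not independent evidence. Of its 88520 bp in 8 merged regions, 52.8% were in the H3K4me1-decreased list, the highest share of any gene here. The regions were 14640 bp (chr8:123031426-123046065), 6200 bp (chr8:123047146-123053345) and 25860 bp wide (chr8:123065506-123091365), with gaps of 1080 and 12160 bp between them. The middle region was also H3K4me2-decreased. The 23440 bp region over the main TSS of *Gse1* was in neither list.

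**Figure D3:**
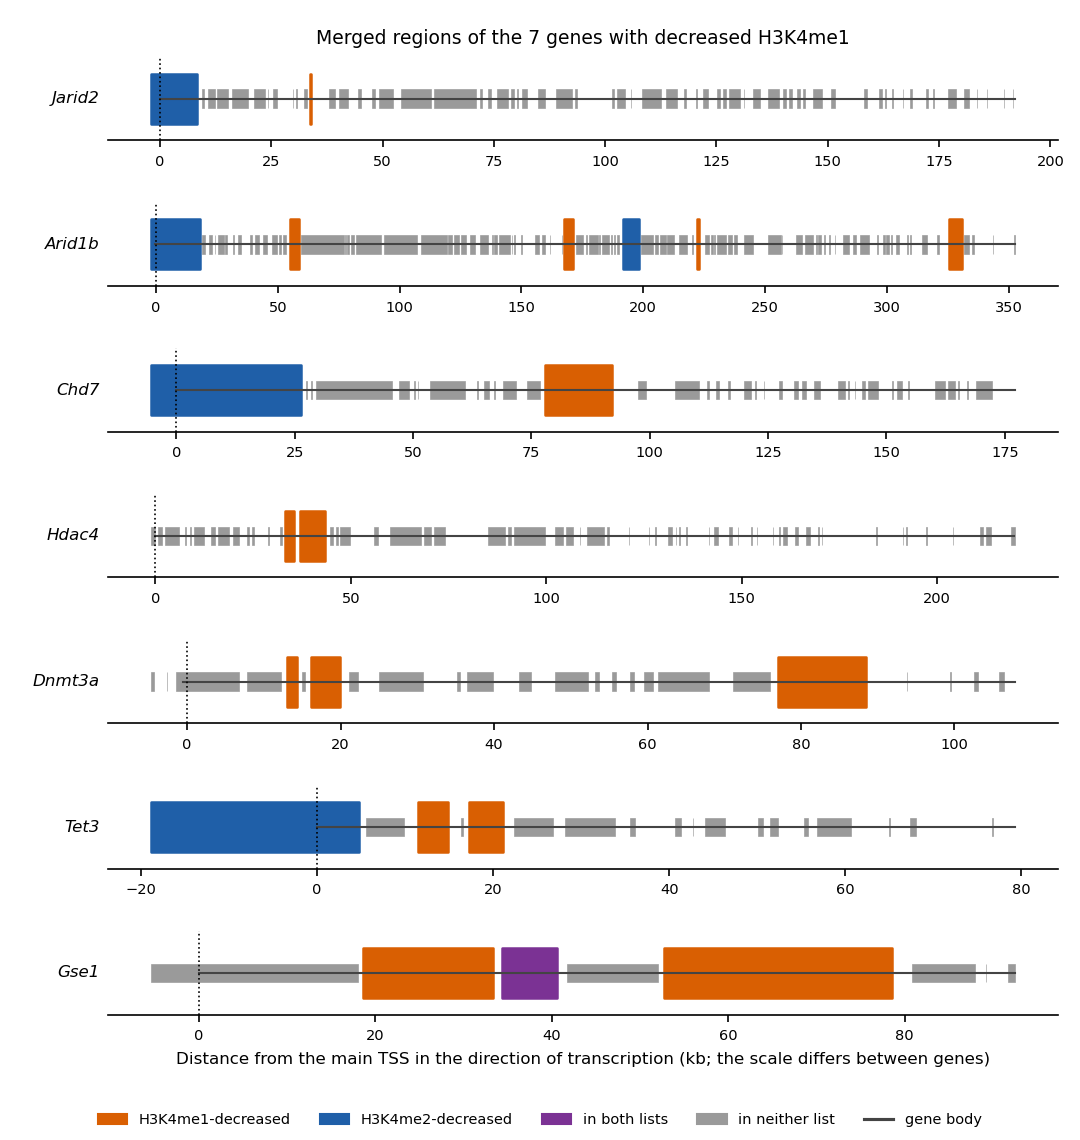
Merged regions of the 7 genes with decreased H3K4me1, by distance from the main TSS in the direction of transcription (kb, horizontal axes that differ between genes), with gray boxes for regions in neither list. The H3K4me1-decreased boxes lie downstream of the main TSS in all 7 genes, from 11444 bp in *Tet3* to 325687 bp in *Arid1b*, and outlines make the 100 bp region of *Jarid2* appear wider than its scale.

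The 7 genes with decreased H3K4me1 were long, with a median length of 177254 bp against 41066.5 bp for the 42 without it. Other coding genes showed the same order, with medians of 73213.5 bp and 16740 bp. In 4 of the 7 (*Jarid2*, *Arid1b*, *Chd7* and *Tet3*) a promoter region was at the same time H3K4me2-decreased, against 25.9% of the 1408 other coding genes with decreased H3K4me1 (364 genes). Loss of the marks was thus listed at different regions of the same gene in these 4, and in *Gse1* at the same region. A TSS lay in an H3K4me2-decreased region for 27 of all 49 genes, so 4 of 7 was near the share of the set. Among coding genes with a TSS in a merged region this share was 29.2%, and the 25.9% was not above it. The counts therefore do not show that calls for the marks went together in the same gene. The 15 H3K4me1-decreased regions without a TSS lay at a median of 15949 bp from the nearest TSS of their gene (range 3816 to 123909 bp). The 12 H3K4me2-decreased regions without a TSS lay at a median of 4645.5 bp (949 to 146208 bp).

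The chromatin genes were more widely marked than other coding genes. The median number of merged regions per gene was 11 (range 2 to 99) against 5 for 19851 other coding genes with a region, and the widest region had a median width of 6720 bp against 3480 bp. A widest region of at least 8000 bp was found in 19 of 49 (38.8%) against 2699 of the others (13.6%). By length, H3K4me2-decreased regions made up 20.9% of the merged base pairs of the 49 genes against 9.09% of all merged base pairs. H3K4me1-decreased regions made up 7.62% against 2.49%. *Gse1*, which the study named from these libraries, held 46700 bp of the H3K4me1-decreased sequence, and the share without it was not computed. The counts were therefore set beside coding genes with a like width of the widest region, in 6 classes. At the shares of these genes, 21.1 of the 49 would hold an H3K4me2-decreased region, where 33 did, and 5.94 an H3K4me1-decreased region, where 7 did. The H3K4me1 count depended on the classes. It was 5.42 by width of the TSS region and 7.59, above the 7 observed, in 10 classes by total base pairs covered. The H3K4me2 counts by these classes were 20.8 and 21.1. For a TSS in an H3K4me2-decreased region, with classes by the width of the TSS region, the same count was 18.0, where 27 were observed. The shares for H3K4me2 were above those of other coding genes in each class that held members. By the lower bound of the class, they were 5 of 7 against 28.8% from 2000 bp, 15 of 23 against 39.7% from 4000 bp, 8 of 14 against 48.0% from 8000 bp, and 5 of 5 against 65.1% from 16000 bp. For H3K4me1, 0 of the 30 genes with a widest region under 8000 bp were called, against 5.25% and 9.38% of other genes in those classes. At 16000 bp or more 4 of 5 were called, against 25.3%, and *Gse1* was among these 4.

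**Figure D4:**
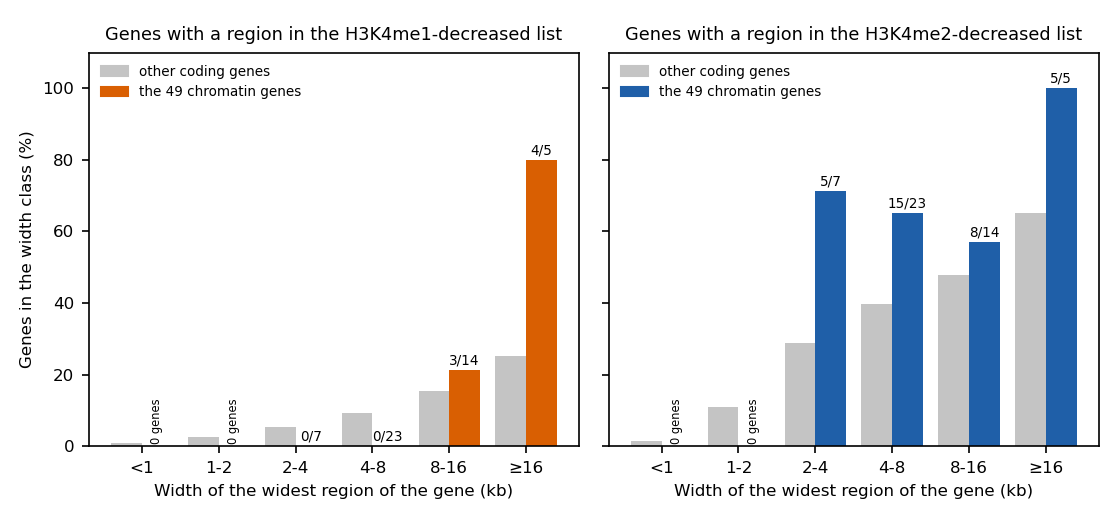
Percent of genes (vertical axis) with an H3K4me1-decreased (left) or H3K4me2-decreased region (right), by width of the widest merged region (kb), for the 49 chromatin genes (numbers above bars) and other coding genes (gray). The H3K4me2 bars of the chromatin genes stand above the gray bars in the 4 classes that hold members, and the H3K4me1 bars stand above them only from 8 kb.

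Width alone did not separate the called from the uncalled promoters of the chromatin genes. The median width of the TSS region was 5740 bp (1780 to 31580 bp) in the 27 genes with a TSS in an H3K4me2-decreased region and 7320 bp (2660 to 23440 bp) in the 19 with no TSS in a decreased region, and the ranges overlapped. In other coding genes the order was opposite, with medians of 4760 bp and 3300 bp. Among the 19 genes, TSS regions over 8000 bp were those of *Gse1*, *Hdac7*, *Kdm6b*, *Dot1l*, *Crebbp*, *Pbrm1* and *Cbx8*. Those of *Hdac7* and *Pbrm1* did not hold the main TSS.

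The sequence composition of the promoters was then examined in the 250 bp upstream of the main TSS. The 49 promoters had a median GC content of 66.0% (range 32.0% to 84.0%) and a median CpG ratio of 0.798, the observed number of CpG over that given by the content of C and G. For 14940 coding genes whose main TSS lay in a merged region these medians were 59.6% and 0.693, and for 22239 coding genes 54.4% and 0.504. GGGCGG occurred in 32 of the 49 windows (65.3%), against 56.6% and 40.2% of these sets. CCAAT was found in 11 (22.4%, against 34.7% and 35.0%), CACGTG in 4 (8.16%, against 1195 and 1439 windows of these sets) and TATAAA in 2 (4.08%, against 6.68% and 12.4%). A match describes the letters in the window and not the binding of a factor. The 24 promoters with the main TSS in an H3K4me2-decreased region had a median GC content of 70.2% and a CpG ratio of 0.856, and the 18 with the main TSS in a merged region that was not called had 68.6% and 0.811, with overlapping ranges. The 7 promoters with the main TSS outside the merged regions, which could not be called, had 45.6% and 0.309. GGGCGG occurred in 0 of these 7, in 18 of the 24 and in 14 of the 18. The values over all 49 thus include promoters of a kind that the set of 14940 genes leaves out. Over coding promoters in merged regions the medians were 60.8% and 0.796 where H3K4me2 was decreased (4271 genes) and 58.8% and 0.639 where it was not (10669 genes).

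CpG content was also measured in whole regions of at least 1000 bp, of which the 49 genes held 306. Regions with a TSS had a median CpG ratio of 0.526 where H3K4me2 was decreased (n = 28) and 0.383 in neither list (n = 35). Over the main TSS alone the medians were closer, 0.554 (n = 24) and 0.479 (n = 18), with overlapping ranges. Regions without a TSS had 0.270 where H3K4me2 was decreased (n = 9), 0.224 where H3K4me1 was decreased (n = 12) and 0.204 in neither list (n = 220). The H3K4me1-decreased regions without a TSS spanned 0.105 to 0.276, whereas H3K4me2-decreased regions over a TSS reached 0.928. The H3K4me1-decreased region of *Dnmt3a* that held a TSS had a ratio of 0.236, below the lowest value (0.264) of the H3K4me2-decreased TSS regions. The ranges of the TSS regions in the H3K4me2 list and in neither list (0.117 to 0.693) overlapped.

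**Figure D5:**
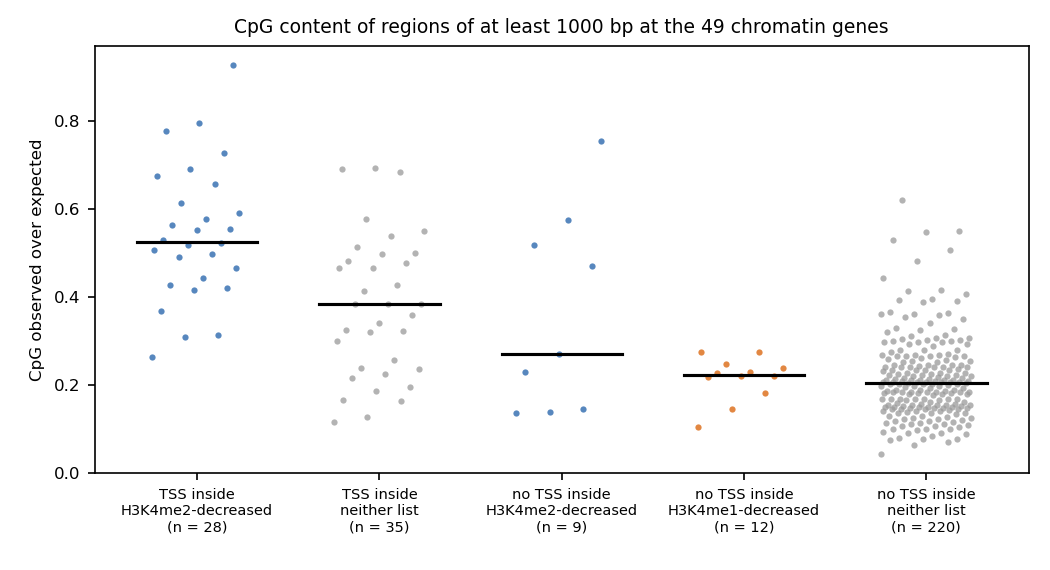
CpG ratio, observed over expected (vertical axis), of regions of at least 1000 bp at the 49 chromatin genes, 1 point per region, with horizontal bars at medians, which were 0.526 for H3K4me2-decreased regions over a TSS and 0.224 for H3K4me1-decreased regions without one. The H3K4me1-decreased region with a TSS and the region in both lists are not plotted.

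Other subunits and enzymes of the same complexes were examined as a list of 85 further genes, whose widest region had a median width of 5020 bp. H3K4me2-decreased regions were found at 37 of the 85 (43.5%, against 28.7% of coding genes) and H3K4me1-decreased regions at 10 (11.8%, against 7.11%), and 33 of 82 with a TSS in a merged region had it in an H3K4me2-decreased one (against 29.2%). At the shares of coding genes of like region width, 32.4 of the 85 would hold an H3K4me2-decreased and 8.28 an H3K4me1-decreased region. Demethylase genes held the highest share, 6 of 7. Of the further PRC2 genes, 2 of 6 had an H3K4me2-decreased region and 0 had it over a TSS, and *Rbbp4* and *Rbbp7*, which encode histone-binding subunits, had none. The counts were 5 of 14 for PRC1, 6 of 16 for BAF, 7 of 12 for CHD and NuRD, 3 of 7 for deacetylases and their corepressors, 3 of 5 for other corepressors, 1 of 3 for acetyltransferases, 1 of 2 for PR-DUB, 2 of 8 for methyltransferases and 1 of 5 for DNA methylation. No test was made of the difference between these genes and the 49.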

How the data were processed

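H3K4me1, H3K4me2 and H3K4me3 were measured by ChIP-Seq in 3 pools of 30 hearts per genotype. Per the labels the build was mm9, and the submitters' processing notes name CASAVA 1.8.2, FastQC, Bowtie, Bowtie2 and SAMtools. The authors merged peaks over replicates and marks, called decreased regions at a false discovery rate they set, and deposited lists of region coordinates, which are neither counts nor scores, so no p-value was computed. The peak caller and the test are not given in the sources used here. All 2730 H3K4me1-decreased and 6699 H3K4me2-decreased regions matched a merged region exactly, which defined a call. The deposited H3K4me2 list is longer than the one the study describes.

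Regions were assigned to a GENCODE vM1 gene by at least 1 bp of overlap with its body or 5 kb around any TSS. Records of a symbol less than 100 kb apart were joined, as for *Hdac4*. The main TSS was that of most protein-coding transcripts. Regions carry 1-based coordinates. Like-width classes used the widest region of a gene. Python 3.11.15, numpy 2.4.6, scipy 1.17.1 and matplotlib 3.10.9 were used, and assignment was tested on simulated regions.

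Members and lists were chosen with earlier results of these data known. Decreased regions were given for each member that had one, and other members by TSS region. A result that the naming rule would have added is not reported here. Printed windows followed region width and left out annotated exons (*Kdm1b*, *Setd7*), and promoter windows were the 250 bp before the main TSS, in place of 300 bp around it. The 4 motifs were searched on both strands, overlapping matches counted.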

Additional observations from a re-analysis of the deposited data

How the results depend on the processing

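Each of 11 counts, shares and medians was recomputed under other choices (72 values), of which 66 stayed within 1.5 times the main count or median, or within its 95% Wilson interval for a share. The genes with an H3K4me2-decreased region numbered 28 to 33 and those with an H3K4me1-decreased region 6 or 7. The lower counts came, for H3K4me2, without regions holding another coding gene's TSS, and for H3K4me1, without *Gse1* or with regions of at least 500 bp only, which left out *Jarid2*. Leaving out narrow regions moved the shares and medians, since few narrow regions were called. Among regions of at least 500 bp, 3.33% of the members' regions were H3K4me1-decreased and 8.44% H3K4me2-decreased, with a median of 6 regions per gene (1.59% and 5.10% of all gene-assigned regions of that width). At 1000 bp the values were 4.58%, 12.4% and 3 (2.33% and 8.09%). No paired analysis was possible because the lists carry no replicate columns and the results come from no test. For the same reason no replicate could be left out, and a stricter threshold could not be tried because the lists hold no scores. The unknown depth limits each uncalled region.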
